A study of Capsella grandiflora and Capsella rubella and Capsella orientalis with 27 samples.

Results

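Dividing flower buds of Capsella grandiflora, an outcrossing species of the mustard family, were compared with seedlings of the same species aged 10 days, across all genes. The comparison rests on 6 of the 27 libraries of the series, 3 of dividing buds and 3 of seedlings. Samples were placed in these groups by their labels, with no measured value used. The series also holds expanding and maturing buds of C. grandiflora and the same 3 stages of 2 self-fertilising species, C. rubella and C. orientalis, and messenger RNA was measured in all of them by RNA sequencing. The labels give a species and a stage for each library and name no genotype, treatment or growth condition, no age for the plants that bore the buds, and no list of the organs taken. Buds and seedlings differ in organ and also come from plants of different stages, and these cannot be told apart. The files list 26521 gene identifiers, of which 23186 passed the filter on low counts and were tested, and 3335 were not tested.

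As background, young flower buds are tissue in which floral organs are still being laid down. Their cells divide, anthers and ovules form, and the germ line is set apart before meiosis. A seedling is a vegetative plant with green cotyledons and first leaves, and in such tissue a small set of nuclear genes for light harvesting and carbon fixation is usually transcribed at very high levels. No gene names stand beside the identifiers in the files. For 29 lists of floral, anther, cell cycle, photosynthesis, root and other genes, 0 patterns on names matched an identifier. The tissue labels could thus not be checked against floral or leaf markers, and only 4 identifiers are named below.

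Gene counts per library were 31961163 to 39624109 in dividing buds and 10612848 to 21880641 in seedlings. The shallowest library was seedling replicate 2. On log2 CPM (a gene's count scaled to the effective size of its library) of the tested genes, the first principal component of the 6 libraries held 94.2% of the variance and set the dividing buds apart from the seedlings. The second, with 2.48%, set seedling replicate 2 apart from the other seedlings. Correlations between replicates were 0.993 to 0.994 in dividing buds and 0.982 to 0.987 in seedlings (Pearson, log2 CPM, across genes). Nothing in the labels says that the replicates came from separate plants, so p-values measure the spread between libraries, which may be technical. For edgeR that spread was taken within the 9 groups of all 27 libraries, and not over these 6 alone.

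More than 3 in 4 tested genes stood at different levels in dividing buds and in seedlings. Of 23186 genes 17809 were called (76.8%), which means an adjusted p under 0.05 by edgeR's quasi-likelihood test, adjusted by Benjamini-Hochberg. Of these, 9350 were higher in dividing buds (40.3% of genes tested) and 8459 were lower (36.5%). More genes were higher than lower, but the lower ones differed by more. The median log2 fold, dividing buds over seedlings, was 0.98 among the genes called higher and -1.48 among those called lower, or 0.97 and -1.47 with zero-count genes at the bounds given below. The libraries of the 2 groups did not overlap in CPM for 17716 genes (76.4%), and 841 called genes did overlap. In such bulk samples fewer cells of a type and less RNA per cell cannot be told apart.

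The balance of directions rests on how libraries are scaled. Library sizes were scaled with TMM (trimmed mean of M-values), whose factors were 1.17 to 1.19 in dividing buds and 0.860 to 1.000 in seedlings. With library totals alone 12185 genes were higher and 6531 lower, so that 65.1% of the calls were higher in dividing buds, against 52.5% with TMM. That scaling moved the median log2 fold of all genes to 0.42, against 0.07 with TMM. All directions below are relative to the TMM scale.

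A large part of the calls were small. Among the 17809 called genes, 7784 differed by less than 2-fold. At least 2-fold, 4620 genes were higher (19.9% of genes tested) and 5405 lower (23.3%). That lead of the lower genes turned with library totals alone, which gave 6496 higher and 4463 lower at 2-fold or more. A total of 833 genes called higher had 0 counts in all seedling libraries and 245 genes called lower had 0 counts in all dividing bud libraries. For these the fold is a lower bound, set with 3 counts over the group as the floor, which is 0.0660 CPM in seedlings and 0.0238 CPM in dividing buds. No bound could be set for 5 of the 833, which stood at or under that floor in dividing buds. With such genes at their bound, 1367 genes were at least 16-fold higher and 1427 at least 16-fold lower, and 183 and 233 were at least 256-fold higher and lower. The deeper dividing bud libraries allow larger bounds for genes lower there than the seedling libraries allow for genes higher there. For the same reason the 833 and 245 zero-count genes do not compare the tissues at equal depth.

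**Figure D1:**
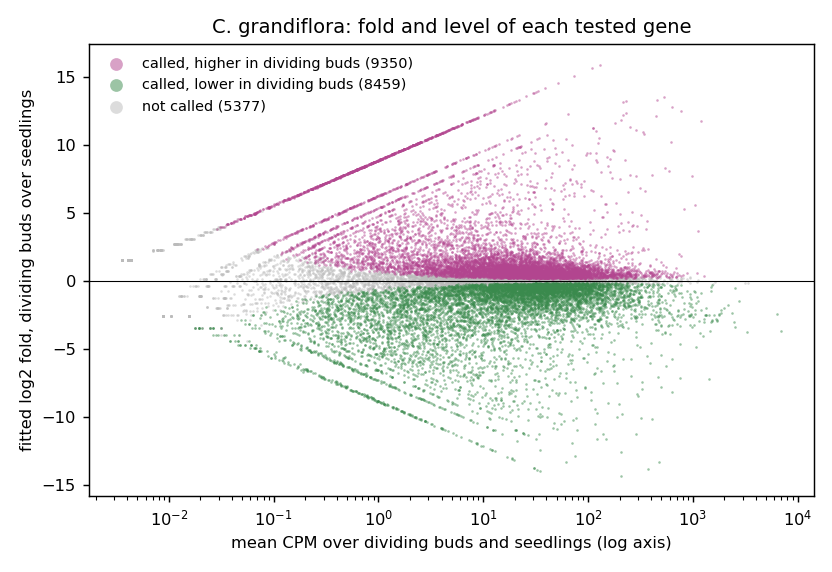
Fitted log2 fold of dividing buds over seedlings (vertical axis) against mean CPM over both groups (horizontal, log axis), 1 point per tested gene, coloured by call. Of the 9350 genes called higher, 4778 lie between 10 and 100 CPM, with a median log2 fold of 0.70. Most points at the highest levels lie below 0. The straight bands at the edges are genes with 0 or few counts in 1 group, whose fitted folds are no measured values.

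The genes with the most counts were mainly seedling genes. Levels were read as the mean CPM over both groups. CPM is not scaled for gene length, so it orders genes by their reads and not by their number of transcripts. Among the 58 genes at 1000 CPM or more, 47 were lower in dividing buds, 5 were higher and 6 were not called, with a median log2 fold of -2.38. Among 1909 genes between 100 and 1000 CPM, 894 were lower and 670 higher, with a median of -0.13, a sign that turns with library totals (median 0.22, 688 lower and 970 higher). Between 10 and 100 CPM the balance was the other way, with 4778 of 10997 genes higher and 4012 lower. At 2-fold or more, however, the lower genes led in that class too, with 1483 higher and 1915 lower, a lead that also turned with library totals (2589 higher and 1436 lower). With TMM, only under 1 CPM did genes at least 2-fold higher in dividing buds outnumber the lower ones, 1202 against 1053 of 3846. With library totals they did so from 1 to 10 CPM too (2240 higher and 1645 lower), while at 1000 CPM or more 3 were higher and 39 lower. The class under 1 CPM holds 1073 of the 1492 genes with 0 counts in 1 or both groups, and the groups differ in depth.

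**Figure D2:**
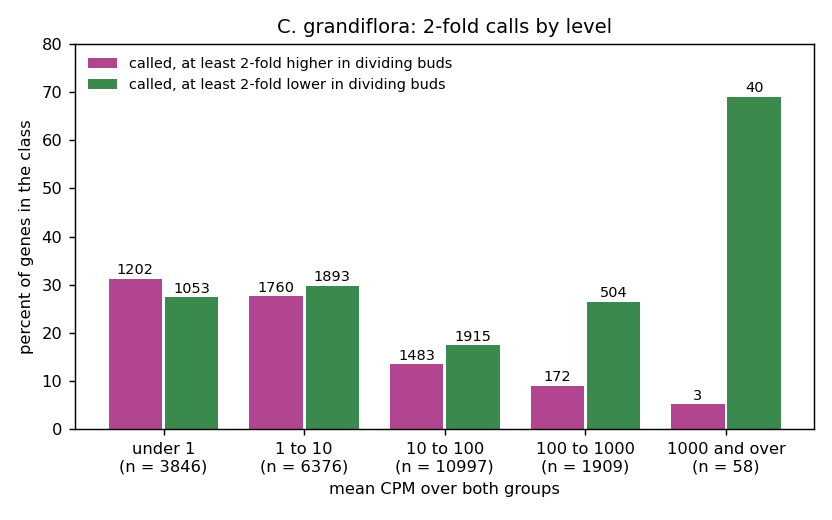
Percent of genes called and at least 2-fold higher or lower in dividing buds (vertical axis), by mean CPM over both groups (horizontal axis), with the number of genes above each bar. From 1 CPM upward the lower bars exceed the higher ones on the TMM scale shown, with 3 genes higher and 40 lower at 1000 CPM or more, and between 1 and 100 CPM that order turned with library totals.

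In dividing buds the counts were spread over more genes. The 10 genes with the most counts in a library held 2.68%, 2.53% and 2.60% of gene counts in the dividing bud libraries, against 5.90%, 4.60% and 5.52% in the seedling libraries. The top 100 held 11.5% ± 0.0665 in dividing buds and 19.9% ± 1.78 in seedlings (SD, n = 3 each). The top genes that together hold 50% of the counts numbered 1631, 1642 and 1656 in the dividing bud libraries, against 874, 1168 and 1035 in the seedling libraries. The groups did not overlap in any of these measures, and the exact two-sided permutation test gave p = 0.1, the smallest p that 3 against 3 libraries allow. Of the 3 seedling libraries, replicate 2 was closest to the buds in each measure.

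**Figure D3:**
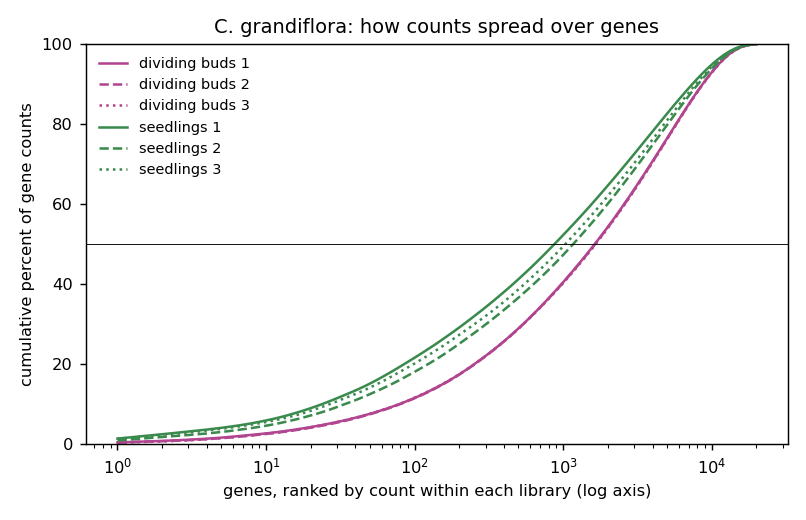
Cumulative percent of gene counts (vertical axis) held by the genes with the most counts in each library (horizontal, log axis), 1 line per library. The lines of the 3 dividing bud libraries lie on each other and below those of the seedlings, and reach 50% (horizontal line) at 1631 to 1656 genes against 874 to 1168 in seedlings.

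The genes at the top of each tissue were shared only in part. Of the 100 genes with the highest mean CPM in each group, 25 were the same. The 100 of dividing buds were carried at high levels in seedlings as well: 56 were higher in dividing buds, 20 lower and 24 not called, with a median level of 783 CPM in dividing buds and 590 CPM in seedlings. The 100 of seedlings were mostly lower in dividing buds: 93 were lower, 1 was higher and 6 were not called, with a median of 386 CPM in dividing buds and 1637 CPM in seedlings. These genes were chosen by their level in 1 of the groups, so the difference is a description. On the TMM scale, a mean of at least 1000 CPM was reached by 31 genes in dividing buds and by 101 genes in seedlings.

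In all, the genes called higher held 50.9% ± 0.864 of gene counts in dividing buds and 20.9% ± 1.55 in seedlings (SD, n = 3 each). The 8459 genes called lower held 28.2% ± 0.590 in dividing buds and 62.7% ± 1.77 in seedlings. The 5377 genes not called held 20.9% ± 0.276 in dividing buds and 16.4% ± 0.315 in seedlings. These shares follow from the choice of genes and carry no test.

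At equal depth more genes were detected in dividing buds. Counts were thinned in expectation to 10612848 per library, the total of seedling replicate 2. At that depth 22331, 22295 and 22388 genes had at least 1 count in the dividing bud libraries, against 21487, 21903 and 21565 in the seedling libraries. At least 10 counts were expected for 18766 ± 53.4 genes in dividing buds and 18428 ± 211 in seedlings (SD, n = 3 each). Neither measure overlapped between the groups (exact permutation p = 0.1 for both, the smallest possible). Without thinning, at least 1 count was found for 23412 ± 29.02 genes in dividing buds and 22018 ± 137 in seedlings. The unthinned gap of 1394 genes was thus 686 genes at equal depth. Equal depth means an equal total of counts. The top 1000 genes took 49.7% of the counts in seedlings and 40.4% in dividing buds, which left a smaller share for all other genes in seedlings. The part of this in the gap was not tested.

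Both tissues had genes that were nearly silent in the other. A total of 1115 genes stood at 1 CPM or more in all dividing bud libraries and under 0.5 CPM in all seedling libraries. The reverse held for 983 genes. At 10 CPM or more on the high side the numbers were 238 and 221. The 1115 bud genes had a median of 3.90 CPM in dividing buds and 0.0314 CPM in seedlings, and the 983 seedling genes 0.0875 CPM in dividing buds and 4.72 CPM in seedlings. Most of these genes thus had few reads even on the high side.

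The expanding buds of C. grandiflora, which did not enter the choice of these genes, held the bud genes unevenly. Of the 1115, 501 had a mean of at least 1 CPM in expanding buds (44.9%) and 491 were under 0.5 CPM there (44.0%). The median in expanding buds was 0.736 CPM. Of the 983 seedling genes, 161 reached 1 CPM in expanding buds (16.4%) and 711 stayed under 0.5 CPM (72.3%). Among the 4620 genes at least 2-fold higher in dividing buds, the median level was 7.51 CPM in dividing buds and 0.690 CPM in seedlings, and the same genes stood at 5.76 CPM in expanding buds. For the 5405 genes at least 2-fold lower it was 1.47 CPM in dividing buds and 12.7 CPM in seedlings, with 3.13 CPM in expanding buds. Expanding buds thus lay near dividing buds in the first median and between the 2 groups in the second, and no test was made of either.

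Named genes were the 2 called genes with the highest and the 2 with the lowest fitted log2 fold among those with at least 10 CPM in the higher group. Carubv10011315m.g stood at 271, 221 and 294 CPM in the dividing bud libraries, against 0 counts in all 3 seedling libraries. That is at least 3932-fold higher, with 3 counts over the seedling group as the floor (edgeR, adjusted p = 7.14e-15). In expanding buds of the same species it stood at 2.72, 6.19 and 2.73 CPM, all below every dividing bud library.

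Carubv10019204m.g stood at 246, 187 and 226 CPM in the dividing bud libraries and also had 0 counts in all 3 seedling libraries. It was at least 3303-fold higher in dividing buds (edgeR, adjusted p = 2.56e-12). In expanding buds it stood at 9.002, 24.9 and 7.12 CPM, with replicate 2 highest, as for Carubv10011315m.g.

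Carubv10020970m.g was a seedling gene, with 0, 0.0213 and 0.0263 CPM in the dividing bud libraries, against 451, 402 and 391 CPM in the seedling libraries. Its counts summed to 2 over the dividing buds and to 19030 over the seedlings. The level in seedlings was 26352 times that in dividing buds, with a 95% counting interval of 7294 to 217613 that covers counting error only (exact binomial interval on the summed counts; edgeR, adjusted p = 3.04e-22). Expanding buds held 7 counts of it, a mean of 0.0731 CPM.

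Carubv10021843m.g had 0 counts in all 3 dividing bud libraries and stood at 104, 51.1 and 55.5 CPM in the seedling libraries. It was at least 3130-fold lower in dividing buds (edgeR, adjusted p = 5.96e-12). Seedling replicate 1 stood well above the other seedling libraries. The files do not say what these genes encode.

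**Figure D4:**
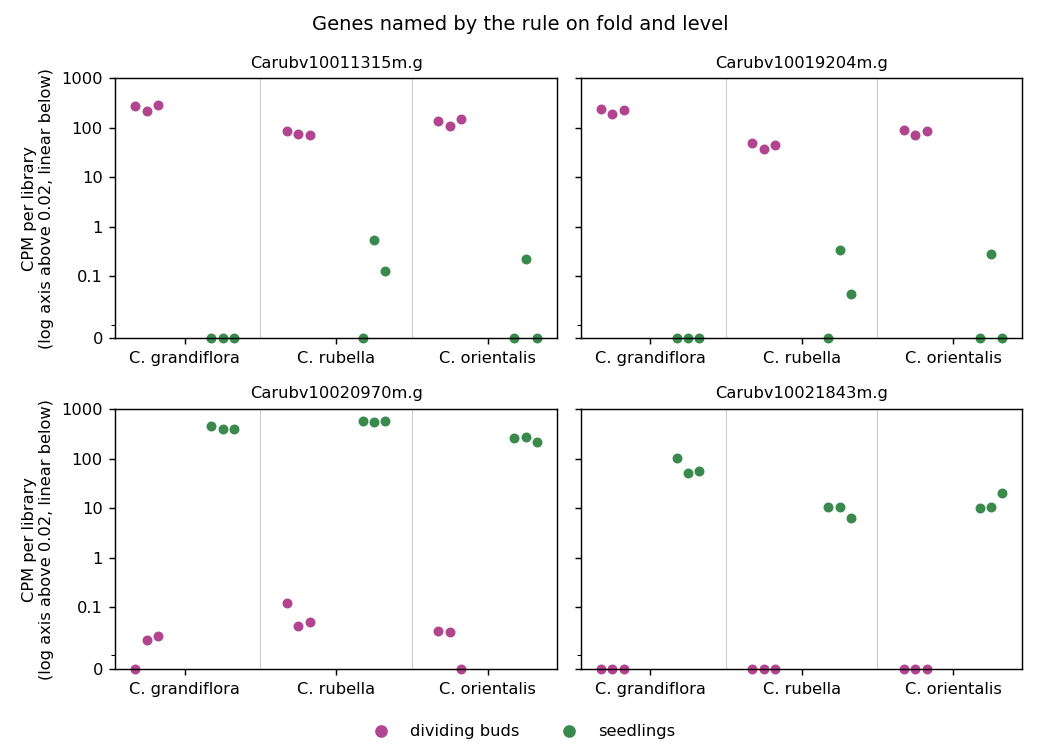
CPM per library (vertical axis, log above 0.02 and linear below) of the 4 named genes in dividing buds and seedlings of each species, 1 point per library. In every species the upper pair of genes is high in dividing buds and near or at 0 in seedlings, and the lower pair the reverse, while the levels differ between species.

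The same 4 genes had the same direction in the other species, whose libraries are separate. Carubv10011315m.g averaged 78.5 CPM in C. rubella dividing buds and 0.221 CPM in its seedlings, and 133 and 0.0743 CPM in the same stages of C. orientalis. Carubv10019204m.g averaged 44.4 CPM in C. rubella dividing buds and 0.128 CPM in its seedlings, and 83.7 and 0.0929 CPM in C. orientalis. In dividing buds both genes were thus at their highest mean in C. grandiflora. All 4 genes were named for their fold in C. grandiflora, which favours extreme levels there. Their levels between species are thus given as a description. Carubv10020970m.g averaged 0.0711 CPM in C. rubella dividing buds and 574 CPM in its seedlings, and 0.0211 and 250 CPM in C. orientalis. Carubv10021843m.g was at 0 in dividing buds of both, and averaged 9.22 CPM in C. rubella seedlings and 13.9 CPM in C. orientalis seedlings, against 70.2 ± 29.4 CPM in those of C. grandiflora (SD, n = 3). In all 8 tests of these genes in the other species the adjusted p was under 0.05, the highest being 3.17e-09 by edgeR, for Carubv10021843m.g in C. rubella.

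Across all genes the difference between dividing buds and seedlings in C. grandiflora was largely shared with the other species. Of the 17809 C. grandiflora calls, 91.8% had a fold of the same sign in C. rubella and 88.8% in C. orientalis. Calls of the same direction were made for 14543 of them in C. rubella (81.7%) and 13773 in C. orientalis (77.3%), where 76.3% and 74.3% of all genes were called. Calls in the opposite direction numbered 547 (3.07%) and 759 (4.26%). Across the 23186 genes the log2 folds of C. grandiflora correlated with those of C. rubella at r = 0.862 and with those of C. orientalis at r = 0.813 (Pearson; Spearman's rho 0.838 and 0.791). Genes are not independent replicates, and all species were counted on the same gene models, so these are descriptions.

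**Figure D5:**
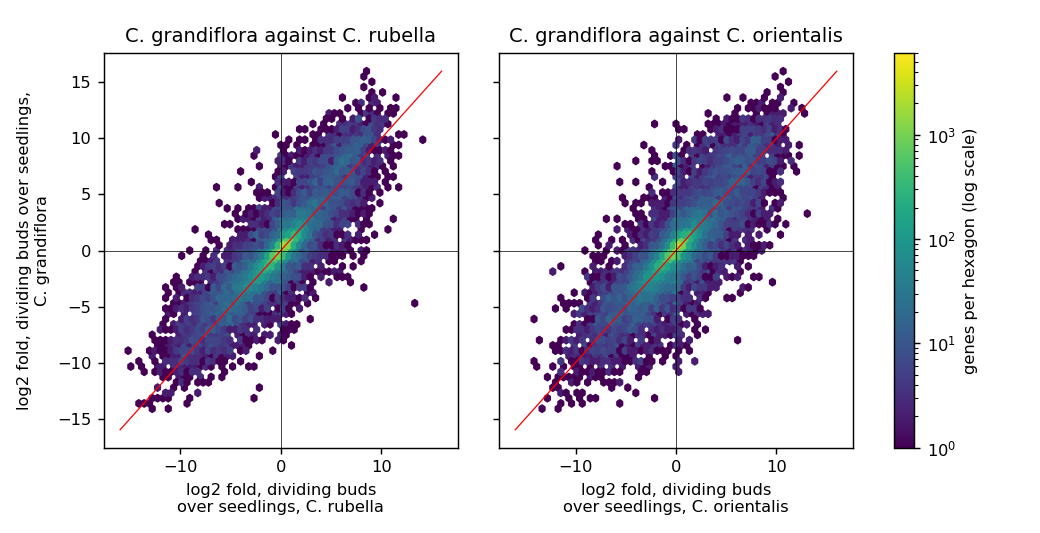
Fitted log2 fold of dividing buds over seedlings in C. grandiflora (vertical axis) against C. rubella (left) and C. orientalis (right), with the number of genes per hexagon in colour on a log scale and the line of equal folds in red. Most genes lie along the line in both panels (r = 0.862 and 0.813), and the most extreme fitted folds often rest on 0 or few counts in 1 tissue.

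Groups of genes chosen by their folds and calls in the other species, in the same fit of all libraries, gave the same picture. A total of 3205 genes were called and at least 2-fold higher in dividing buds than in seedlings in both C. rubella and C. orientalis, where 40.8% and 40.8% of all genes were called higher and 35.5% and 33.5% lower. In C. grandiflora 3044 of these were higher (94.98%, against 40.3% of all genes), 22 were lower and 139 were not called, with a median log2 fold of 2.71 with zero-count genes at their bound. Together they took up 15.2%, 14.7% and 16.4% of gene counts in the dividing bud libraries, against 2.18%, 2.78% and 2.45% in the seedling libraries (exact permutation p = 0.1, the smallest possible).

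The 3702 genes at least 2-fold lower in dividing buds of both selfing species behaved in the same way. In C. grandiflora 3574 were lower (96.5%, against 36.5% of all genes), 15 were higher and 113 were not called, with a median log2 fold of -2.78 with zero-count genes at their bound. They held 8.68%, 8.65% and 8.03% of gene counts in the dividing bud libraries, against 37.5%, 33.6% and 36.0% in the seedling libraries (exact permutation p = 0.1, the smallest possible). Genes with folds under 1.5 in both selfing species, 5810 in number, had a median log2 fold of 0.08, with zero-count genes at their bound. In C. grandiflora 1902 of them were called higher (32.7%, against 40.3% of all genes) and 1291 lower (22.2%, against 36.5%). The other 2617 were not called. At least 2-fold, 113 were higher (1.94%, against 19.9% of all genes) and 108 lower (1.86%, against 23.3%). The 5810 genes held 38.6% ± 0.396 of gene counts in dividing buds and 29.3% ± 0.758 in seedlings (SD, n = 3 each).

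The size of the difference, as opposed to its direction, often differed between species. The test of the difference itself, in the same fit, called 7158 genes between C. grandiflora and C. rubella (30.9% of genes tested) and 7804 between C. grandiflora and C. orientalis (33.7%). In most of them both species had calls of the same direction, 4217 and 4251 genes. In 547 and 759 genes the species had calls of opposite directions. Of the 7158 genes 3299 had a more positive fold in C. grandiflora and 3859 a more negative one, and of the 7804 genes 3714 and 4090. That balance turned with another scaling of the libraries by relative log expression (RLE), with 3544 more positive and 3519 more negative against C. rubella and 4034 and 3855 against C. orientalis.

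For strong bud genes the difference between species was called for a smaller share than among all genes, 19.0% against 30.9% for C. rubella and 21.0% against 33.7% for C. orientalis. To keep the folds compared out of the choice, strong bud genes were taken from the species left out. These were called and at least 16-fold higher in dividing buds than in seedlings there. The calls came from the fit of all libraries, so the libraries compared still entered its filter, scaling and spread. Such a choice need not be neutral between the species compared, which was not tested. Of 1594 such genes of C. orientalis, 236 (14.8%) had a more positive fold in C. grandiflora than in C. rubella and 67 (4.20%) a less positive one, against 14.2% and 16.6% of all genes. The first share was thus near that of all genes and the second was below it. Their median level in dividing buds was 3.11 CPM in C. grandiflora and 1.02 CPM in C. rubella. Of 1500 such genes of C. rubella, 214 (14.3%) had a more positive fold in C. grandiflora than in C. orientalis and 101 (6.73%) a less positive one, against 16.02% and 17.6% of all genes. Here too the more positive share was near or under that of all genes. Their median level in dividing buds was 3.34 CPM in C. grandiflora and 1.24 CPM in C. orientalis. In seedlings the same genes had medians of 0.0314 CPM in C. grandiflora against 0.0162 CPM in C. rubella, and of 0.0208 CPM in C. grandiflora against 0.0186 CPM in C. orientalis. At such levels a fold rests on 0 or few counts, which limits what can be called. The part of this in the smaller shares called was not tested. The median fitted log2 difference was 1.33 against C. rubella and 1.36 against C. orientalis, while among all genes it was -0.015 and -0.0065. These fitted values rest on the same few counts. Within these groups the more positive calls outnumbered the less positive ones under each of the other 3 scalings and without any single C. grandiflora library.

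For strong seedling genes each comparison used a different group of genes, chosen in the species left out. The shares below thus do not set the selfing species against each other. Across all genes the folds of C. grandiflora correlated at 0.862 with C. rubella and at 0.813 with C. orientalis, so the choice need not be neutral. The part of the choice in these shares was not tested. Of 1664 genes at least 16-fold lower in dividing buds of C. rubella, 431 (25.9%) had a more negative fold in C. grandiflora than in C. orientalis and 154 (9.25%) a less negative one, against 17.6% and 16.02% of all genes. Of 1272 such genes of C. orientalis, 154 (12.1%) had a more negative fold in C. grandiflora than in C. rubella and 183 (14.4%) a less negative one, against 16.6% and 14.2% of all genes, so that these shares were near or under those of all genes. How well reads of each species match the gene models was not tested.

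Seedlings varied more between replicates than dividing buds. Among the 10997 genes between 10 and 100 CPM, the median SD of log2 CPM over the 3 libraries was 0.0818 in dividing buds and 0.156 in seedlings, and among 1909 genes between 100 and 1000 CPM it was 0.0719 in dividing buds and 0.168 in seedlings. Depth was 31961163 to 39624109 counts in dividing buds and 10612848 to 21880641 in seedlings, and the part of depth in the spread was not tested. Without seedling replicate 2, the library that lay apart, 17548 genes were called, 9196 higher and 8352 lower.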

How the data were processed

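For each library the authors deposited a table of raw read counts by gene. Per the submitters' processing notes the tools were Trimmomatic and HTSeq. Per the labels' protocols, total RNA from an RNeasy plant kit went into TruSeq libraries, which were read on a HiSeq2000 as single reads of 50 cycles. The sources used here do not give the aligner, genome build, annotation or strand setting, so overlapping genes on opposite strands, and near-identical copies, cannot be told apart. The identifiers begin with Carubv. The 5 HTSeq summary rows that name no gene were dropped. Over the 6 libraries, reads outside genes were 4.14% to 4.69% of listed reads, ambiguous reads 3.82% to 4.65% and reads with several alignments 4.75% to 9.44%.

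Counts of all 27 libraries were fitted as 9 group means in R 4.3.3 with edgeR 4.0.16 (filterByExpr, TMM, quasi-likelihood F-test). Calls are Benjamini-Hochberg adjusted p under 0.05 over 23186 genes. CPM uses TMM-scaled library sizes. Log2 CPM used a prior count of 2. The procedure was tested on simulated data. Single values per library were compared by exact permutation. Chi-square per degree of freedom between replicates was 9.22 to 25.7 over genes with at least 20 counts, so each library was counted once. Alternatives were other scalings, no filter, fewer libraries, a replicate block, DESeq2 1.42.0, a stricter threshold and leaving out each library. Genes were named by fold and level (2 each way, at least 10 CPM in the higher group). The comparison, lists and rules were chosen with earlier results of these data known. Intervals and floors cover counting error only.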

Additional observations from a re-analysis of the deposited data

Results flagged for a closer look

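The difference between dividing buds and seedlings itself differed between species for 7158 genes against C. rubella and 7804 against C. orientalis (edgeR's quasi-likelihood test of the difference, Benjamini-Hochberg adjusted p under 0.05). Of 1594 strong bud genes chosen in C. orientalis, 236 (14.8%) had a more positive fold in C. grandiflora than in C. rubella and 67 (4.20%) a less positive one, against 14.2% and 16.6% of all genes. Of 1500 chosen in C. rubella, 214 (14.3%) had a more positive fold than in C. orientalis and 101 (6.73%) a less positive one, against 16.02% and 17.6% of all genes. The more positive shares were thus near those of all genes. These genes had few counts in seedlings, which limits what can be called, and their median fitted log2 differences were 1.33 and 1.36.

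Of the 4 named genes, Carubv10011315m.g had a fitted log2 difference of 7.41 between C. grandiflora and C. rubella. The gene was named for its high fitted fold in C. grandiflora, so this difference uses the values that chose it and is given as a description. This fitted value rests on 0 counts in the C. grandiflora seedlings against 14 in those of C. rubella, of which replicate 2 held 11.

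The summary rows, which enter no test of genes, also separated the groups. Reads with several alignments were 4.97% ± 0.187 of listed reads in dividing buds and 9.30% ± 0.183 in seedlings (SD, n = 3 each). Ambiguous reads were 4.63% ± 0.0322 in dividing buds and 3.89% ± 0.0586 in seedlings. Neither overlapped (exact permutation p = 0.1, the smallest possible). Reads with several alignments were 4.45% in dividing buds and 7.10% in seedlings of C. rubella, and 7.90% and 8.33% in those of C. orientalis, where the libraries overlapped. Genes with near-identical copies lose such reads, and the part this plays in any gene's fold was not tested.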

How the results depend on the processing

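The counts of genes called in total, higher, lower and at least 2-fold each way stayed within 1.5 times their value under RLE and upper-quartile scaling, library totals, no filter, the 6 libraries alone, the replicate block, DESeq2 and an adjusted p under 0.01. At 2-fold or more the lower genes led in each of these except with library totals (6496 higher and 4463 lower). The 4 named genes kept their direction and call in each of these. An adjusted p under 0.01 left 4720 genes with a difference from C. rubella. Library totals called 4941 bud genes of the selfing species higher, since that scaling enlarged the group to 5173 genes. With library totals the shares of calls with the same sign were 92.7% in C. rubella and 90.6% in C. orientalis, and with the same call 84.8% and 82.2%. With no filter the share with the same sign was 88.4% in C. orientalis, and the shares with the same call were 80.4% in C. rubella and 75.95% in C. orientalis.

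Leaving out each of the 6 libraries gave 17162 to 17548 called genes, 8992 to 9196 higher, 8156 to 8352 lower, and 4415 to 4799 and 5319 to 5465 at least 2-fold higher and lower. Differences between species numbered 6424 to 7453 for C. rubella and 7109 to 7842 for C. orientalis. Bud genes of the selfing species called higher were 3006 to 3045 and their seedling genes called lower 3555 to 3582. Shares with the same sign were 91.4% to 92.3% in C. rubella and 89.0% to 89.5% in C. orientalis, and with the same call 81.995% to 82.995% and 77.7% to 78.7%. With all libraries 3 of these 4 shares lay under their range, so it is no measure of their error. The bud genes of the selfing species held 12.5 to 13.3 percentage points more of the counts in dividing buds, and the difference for the seedling genes was -28.3 to -26.4 points.

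Replicate numbers 1 to 3 occur in both groups, but same-numbered libraries did not deviate together (correlations of 0.0298, -0.0350 and -0.0179), so the number was not used as a pairing. With the replicate block, 15816 genes were called, 8360 higher and 7456 lower, against 16120 without it in the same 6 libraries. Counted over genes with a mean of at least 1 CPM, chosen after seeing the data, 15493 genes were called. The planned comparisons within lists of named genes were not run, since 0 lists matched. Depth limits the genes under 1 CPM, with a median SE of 0.72 on the log2 scale against 0.11 between 10 and 100 CPM.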
